A study of Drosophila melanogaster with 4 samples.

Results

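Hsp60C, Hsc70-5 and DnaJ-1 are 3 heat shock chaperone genes of Drosophila melanogaster, and their log ratios in heads of strychnine-fed males are described here. They are 3 of 6793 named genes on the slide and 3 of 2027 named genes with a value in all distinct sets of values. They were chosen by the centred log ratio itself, which was positive in each set, so that sign is not a result and gets no test below. Chaperones bind unfolded proteins and help them to fold. Hsp70 proteins do this in cycles of ATP hydrolysis that J-domain co-chaperones start, while Hsp60 chaperonins form a closed chamber together with a lid of Hsp10. Mitochondria have their own Hsp60, Hsp70, Hsp90 and Hsp10 proteins, which fold proteins imported from the cytosol, and cytosolic chaperones include the small heat shock proteins. Hsp60C encodes a mitochondrial type chaperonin related to Hsp60A and is known to be needed for tracheal development and male fertility. Hsc70-5 encodes the Hsp70 of the mitochondrial matrix. DnaJ-1 encodes a heat-inducible J-domain co-chaperone of cytosolic Hsp70, known in flies as a suppressor of polyglutamine toxicity.

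Unmated males of the wild-type Oregon-R strain, 3 to 4 days old at the start, were fed strychnine (3.33 mg/ml in the food) or normal food for 7 days. Strychnine is a plant alkaloid that blocks the vertebrate glycine receptor. RNA of pooled heads was compared on 4 two-colour cDNA arrays, each with treated RNA set against control RNA of the same biological replicate. The treated RNA was labelled with Cy5 for replicates 1 and 2 and with Cy3 for the other two, so there was 1 group of 4 arrays and each value is a ratio within an array. A ratio gives no expression level, and fewer cells of a type cannot be told apart from less RNA per cell in whole heads.

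Replicates 1 and 3, which are labelled with opposite dyes, were identical at 7643 of 7643 spots that both measured. As these values did not differ at all, the 2 replicates were counted as 1 sample, named the shared set. This left 3 distinct sets of values, with 8894 spots on replicate 2, 9725 on replicate 4 and 9360 in the shared set. The values were read as log2, and neither the log base nor the direction is given in the sources used here. No positive value is therefore called an increase after strychnine. Each set was centred on the median over its genes and unnamed spot pairs, so a positive value lies above the median of that set. Intensities were not used here, and the number of arrays limits the precision.

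Hsp60C had the most positive mean of the 3 members. Its centred log2 ratio was 0.55 on replicate 2, 1.10 on replicate 4 and 1.39 in the shared set. The mean was 1.02 ± 0.43 (SD, n = 3 sets), a ratio 2.02 times that of the median unit. Replicate 2 was the low set, and all 3 sets lay above 0. The value rests on 1 pair of neighbouring spots, and the other pair of this gene on the slide had no value in any set. The 2 spots read 0.43 and 0.68 on replicate 2, 1.44 and 0.76 on replicate 4, and 1.46 and 1.33 in the shared set. The gap of 0.68 between duplicates on replicate 4 compares with a median absolute difference of 0.168 over all duplicate pairs of that array. Replicate 3 held no value for Hsp60C, so its shared value comes from the column of replicate 1 alone. The 1713 spots measured on replicate 1 and not on replicate 3 had a centred median of 0.35 on replicate 2 and 0.30 on replicate 4. The 7643 spots measured on both had medians of -0.11 and -0.10 on the same arrays, and the part of this in the value of Hsp60C was not tested.

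Hsc70-5 had nearly the same mean as Hsp60C with the smallest spread of the 3. Its centred log2 ratio was 0.77 on replicate 2, 1.02 on replicate 4 and 1.03 in the shared set, a mean of 0.94 ± 0.15 (SD, n = 3 sets) and a ratio of 1.92. The 3 sets lay within 0.26 of each other. It also rests on 1 spot pair, and its other pair had no value. The 2 spots differed by 0.53 on replicate 2, 0.15 on replicate 4 and 0.47 in the shared set, so in 2 of the sets the duplicates lay farther apart than the sets did. Unlike Hsp60C, it had a value on replicate 3, equal to that on replicate 1.

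DnaJ-1 had the lowest mean of the 3 and the most spots. Its centred log2 ratio was 0.28 on replicate 2, 0.37 on replicate 4 and 1.00 in the shared set, a mean of 0.55 ± 0.39 (SD, n = 3 sets) and a ratio of 1.46. The shared set was the high one, and replicates 2 and 4 lay close together. As deposited, before centring, DnaJ-1 was at -0.08 on replicate 2, -0.25 on replicate 4 and 0.88 in the shared set. Its positive sign on those arrays is thus a position above the array's median and not a ratio above 1. Hsp60C, at 0.18, 0.48 and 1.28 as deposited, and Hsc70-5, at 0.40, 0.40 and 0.91, were positive in the same 3 sets before centring too.

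**Figure D1:**
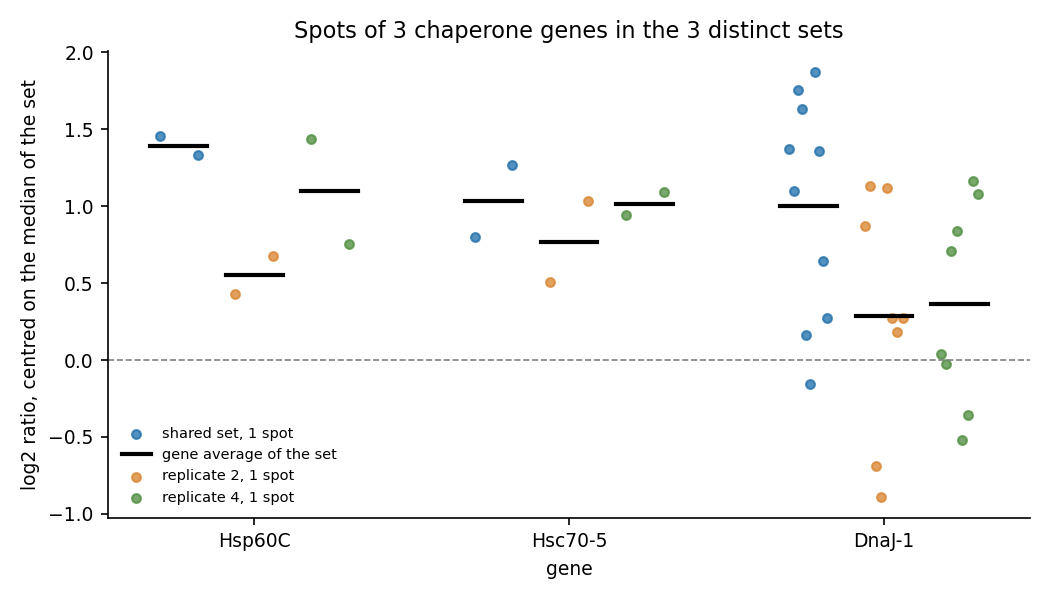
Centred log2 ratio (vertical axis) of every measured spot of Hsp60C, Hsc70-5 and DnaJ-1 in the shared set (blue), replicate 2 (orange) and replicate 4 (green), with black bars for the gene average of each set. The spots of Hsp60C and Hsc70-5 all lie above 0, and those of DnaJ-1 lie on both sides of it.

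The spot pairs of DnaJ-1 did not read alike. The slide has 8 pairs of this gene, of which 5 had a value and 3 had one in all 3 sets. Spot pair 4 read 0.70 on replicate 2, 1.12 on replicate 4 and 1.62 in the shared set, a mean of 1.14 ± 0.46 (SD, n = 3 sets). Spot pair 1 read 1.00, 0.01 and 1.23 in the same order. Spot pair 3 read -0.79, -0.44 and 0.00, a mean of -0.41 ± 0.40 (SD, n = 3 sets). Pair 3 was thus the lowest pair in each set, and pair 4 had a mean above those of Hsp60C and Hsc70-5. Pair 2 read 1.69 in the shared set and 0.77 on replicate 4 with no value on replicate 2. Pair 5 read 0.46 in the shared set and 0.23 on replicate 2 with no value on replicate 4. The gene average therefore holds different pairs in each set, and over spots with a value in all 3 sets its mean was 0.49.

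Pairs of DnaJ-1 varied both among themselves and over sets. The SD over pairs was 0.78 on replicate 2 (n = 4), 0.71 on replicate 4 (n = 4) and 0.74 in the shared set (n = 5). The SD over the 3 sets of a single complete pair was 0.65 for pair 1, 0.40 for pair 3 and 0.46 for pair 4. The means of its 3 complete pairs spanned 1.55. Among 98 genes with at least 2 complete pairs the median span was 0.42, and the span of DnaJ-1 was number 5 from the largest. Genes with more pairs have wider spans, and over the 9 genes with at least 3 complete pairs the median was 1.12, with 3 of them, DnaJ-1 included, at or above 1.55. Which stretch of the transcript each pair holds is not given in the sources used here.

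**Figure D2:**
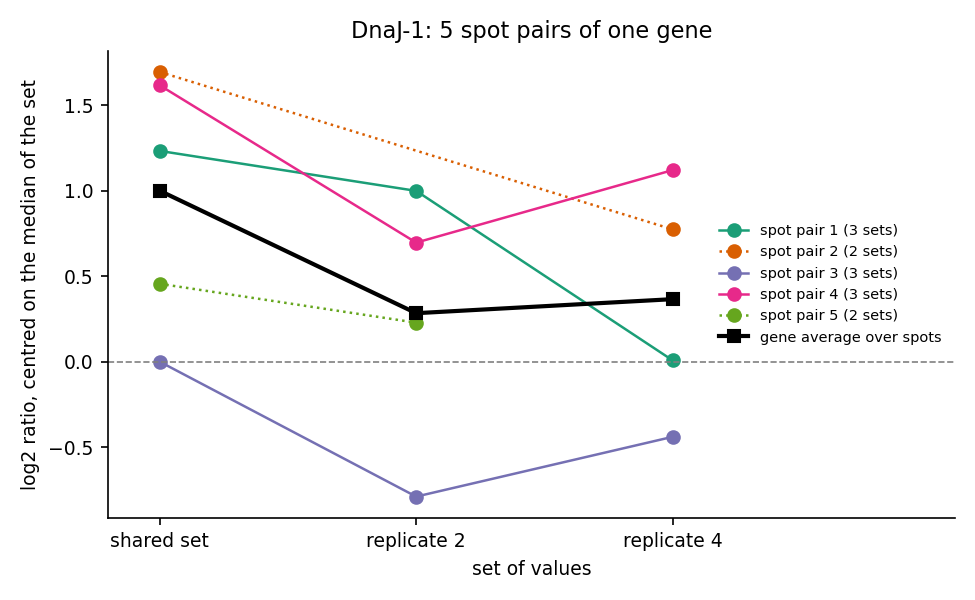
Centred log2 ratio (vertical axis) of the 5 measured spot pairs of DnaJ-1 in the shared set, replicate 2 and replicate 4. Lines join values of the same pair (dotted where 1 set is missing), and the black squares are the average over spots. Pair 3, at -0.79, -0.44 and 0.00, is the lowest in each set, and pairs 2 and 4 are the highest in the shared set.

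The 2 mitochondrial members differed by less than the spread over sets, and both had higher centred values than DnaJ-1 in each set. Hsp60C minus Hsc70-5 averaged 0.08 ± 0.29 (SD, n = 3 sets), with a negative difference on replicate 2. Hsp60C minus DnaJ-1 averaged 0.46 ± 0.24 and was positive in 3 of 3 sets, and Hsc70-5 minus DnaJ-1 averaged 0.39 ± 0.32, likewise positive in 3 of 3. The smallest difference of these was 0.03, between Hsc70-5 and DnaJ-1 in the shared set. This order did not hold after a correction for slide position, where DnaJ-1 had a mean of 0.47, Hsc70-5 0.44 and Hsp60C 0.59. DnaJ-1 then lay above Hsc70-5 on replicate 2 (0.35 against 0.32) and in the shared set (0.85 against 0.39). On replicate 4 it lay below (0.22 against 0.61). Hsp60C was below DnaJ-1 on replicate 2, at -0.15. An exact two-sided permutation test over 3 sets cannot go below p = 0.25, so no order among the 3 genes could be established.

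The members lay toward the top of all measured units, as their choice implies. A unit is a named gene or an unnamed spot pair, and 4002 units had a value in all 3 sets. Of these, 28.2% were positive in all 3 sets and 27.5% were negative in all 3, and of named genes 25.3% and 29.3%. By limma's test of the mean of the 3 centred sets against 0, 8.1% of units were positive past an adjusted p of 0.05 and 1.97% were negative, and of named genes 4.64% and 2.07%. No unit passed by limma as deposited, after a correction for slide position, with scale normalization or with the shared set left out, where 823 to 1493 units had an unadjusted p under 0.05. Means as high as that of Hsp60C were found in 240 units, as high as that of Hsc70-5 in 295 and as high as that of DnaJ-1 in 734. Among named genes alone Hsp60C stood at percentile 98.1, Hsc70-5 at 97.2 and DnaJ-1 at 87.0.

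The dye-exchanged arrays give a second measure, which for the members is a description only, since it comes from the arrays that chose them. If the deposited values are Cy5 over Cy3, a treatment effect has opposite signs on replicates 2 and 4, and it equals the value on replicate 2 minus that on replicate 4, divided by the number of these arrays. All 3 members had the same sign on both arrays instead, as their choice fixes, and this bounds the size of the measure. This dye-turned difference was -0.27 ± 0.28 for Hsp60C, -0.12 ± 0.25 for Hsc70-5 and -0.04 ± 0.29 for DnaJ-1 (SE of the limma fit). By limma 0 of 4002 units passed (0.0%), and 4.07% had an unadjusted p under 0.05. This fit coded the shared set 0, because its labels disagree. If the values are Cy5 over Cy3, a treatment effect in that set enters the residual spread and widens the SE. The count of 0 units therefore does not show that no unit changed. The dye-turned difference of DnaJ-1 was positive as deposited (0.08) and after a correction for slide position (0.06).

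**Figure D3:**
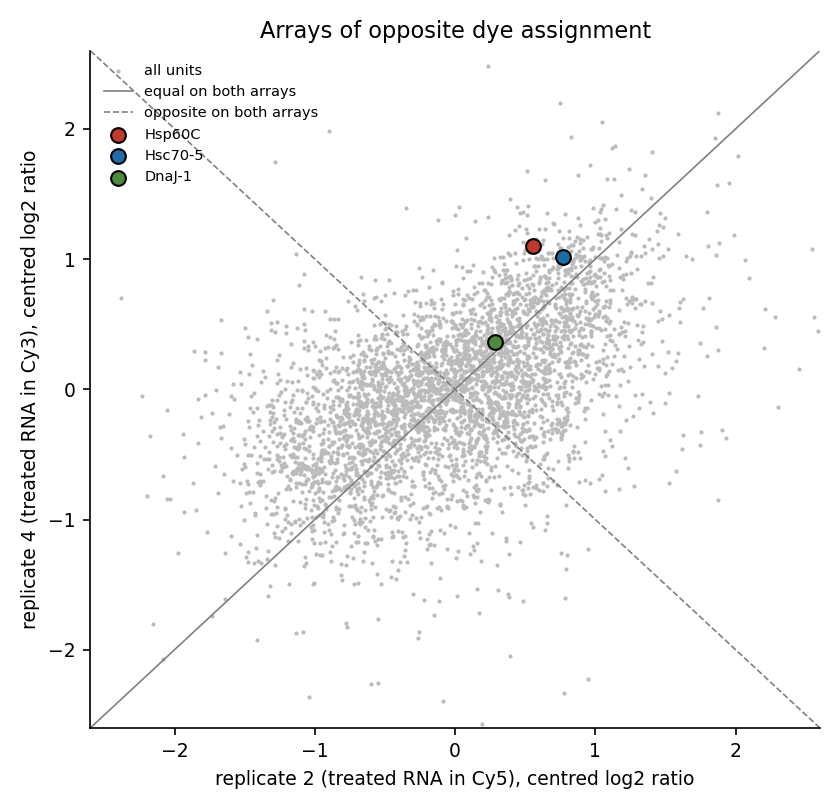
Centred log2 ratio on replicate 2 (horizontal axis, treated RNA in Cy5) against replicate 4 (vertical axis, treated RNA in Cy3) for 4002 units (grey, 31 outside the range shown) and the 3 members (coloured). A treatment effect in Cy5 over Cy3 would lie along the dashed line, and the solid line marks equal values on both arrays. The members, chosen as positive on both, lie above 0 on both axes.

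If treated over control is instead what the values already hold, the means given above are the treatment effects. The members are then higher in strychnine-fed males than in males on normal food, relative to the median unit. If the values hold control over treated, the treatment effects have the opposite sign and the members are lower in strychnine-fed males, relative to the median unit. The labels do not settle which of these readings holds. Over all 4002 units, replicates 2 and 4 correlated positively (Pearson's r = 0.478, Spearman's rho = 0.537, across units that share arrays and slide positions).

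Chaperones of the mitochondrion were set beside those of the cytosol. The list of 15 mitochondrial chaperones and proteases had 10 genes on the slide and 6 with a value in all 3 sets. Of the 6, 3 were positive in all sets (CG9920 and the members Hsp60C and Hsc70-5, chosen for that sign). Another 2 were negative in all sets (Lon and CG11267), and the median of the means was 0.57. Over all units 28.2% were positive in all sets and 27.5% were negative in all sets. The list of 56 cytosolic chaperones had 34 genes on the slide and 12 in all 3 sets. Of the 12, 1 was positive in all sets, the member DnaJ-1 chosen for that sign, and 4 were negative throughout, and the list had a median of -0.35. The median over all units was -0.03.

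Without the members, the lists differed less. The 4 other mitochondrial genes had a median of -0.02, and the 11 other cytosolic ones had a median of -0.39. CG9920, a gene of the Hsp10 family, whose products form the lid of Hsp60 chaperonins, was at 0.39 on replicate 2, 1.46 on replicate 4 and 1.503 in the shared set. Its mean was 1.12 ± 0.63 (SD, n = 3 sets; limma adjusted p = 0.0477), and replicate 2 was its low set, as it was for Hsp60C. CG9920, like Hsp60C, had no value on replicate 3. The call lay close to the threshold and was lost when replicate 2 (adjusted p = 0.0826), replicate 4 (0.072) or the shared set (0.131) was left out.

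The 2 Hsp10 family genes did not have the same sign. CG11267, which the reference annotation also lists under the name Hsp10, was at -0.13 on replicate 2, -0.03 on replicate 4 and -0.58 in the shared set (mean -0.25 ± 0.29, SD, n = 3 sets; limma adjusted p = 0.434). Lon, the ATP-dependent protease of the mitochondrial matrix, was at -0.97, -0.84 and -1.05 in the same order. Its mean of -0.95 ± 0.11 (SD, n = 3 sets; limma adjusted p = 0.0416) was nearly as far below 0 as Hsc70-5 was above it. That call was lost without replicate 1 (adjusted p = 0.0551), replicate 2 (0.124) or the shared set (0.11). Trap1, the mitochondrial Hsp90, had a mean of 0.20 ± 0.35 (SD, n = 3 sets) with both signs, and one of -0.12 after a correction for slide position. Roe1, the nucleotide exchange factor of mitochondrial Hsp70, had no value on replicate 2 and was at -0.54 in the shared set and -0.59 on replicate 4.

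Of the 11 cytosolic chaperones outside the members, 0 passed limma's adjusted threshold and 2 had an unadjusted p under 0.05, against 31.2% of named genes. With 4.64% of named genes called positive and 2.07% negative, 0 of 11 is near the background. The most positive was Pfdn4, a prefoldin subunit, with a mean of 0.27 ± 0.55 (SD, n = 3 sets), followed by STUB1, a co-chaperone and ubiquitin ligase, at -0.03 and stv, a BAG-domain co-chaperone, at -0.07. The most negative was jdp, another J-domain gene, at -0.69 ± 0.85 (SD, n = 3 sets), whose value of -1.67 on replicate 2 stood apart from -0.12 in the shared set and -0.29 on replicate 4. The Hsp90 co-chaperone p23 was at -0.49, the small heat shock protein l(2)efl at -0.48 and Tpr2 at -0.47, each negative in 3 of 3 sets. After a correction for slide position these means were -0.02 for p23, -0.23 for l(2)efl and 0.13 for Tpr2, so that of Tpr2 changed sign. The J-domain genes of the cytosol other than DnaJ-1 that were measured in all 3 sets had negative means before that correction. In the endoplasmic reticulum list, 1 of 12 genes had a value in all 3 sets. This was Ero1L, which encodes an oxidase of disulfide bond formation, at -1.04 ± 0.23 (SD, n = 3 sets; limma adjusted p = 0.0416). Its call was lost without replicate 1 (0.0541), replicate 2 (0.13) or the shared set (0.103).

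**Figure D4:**
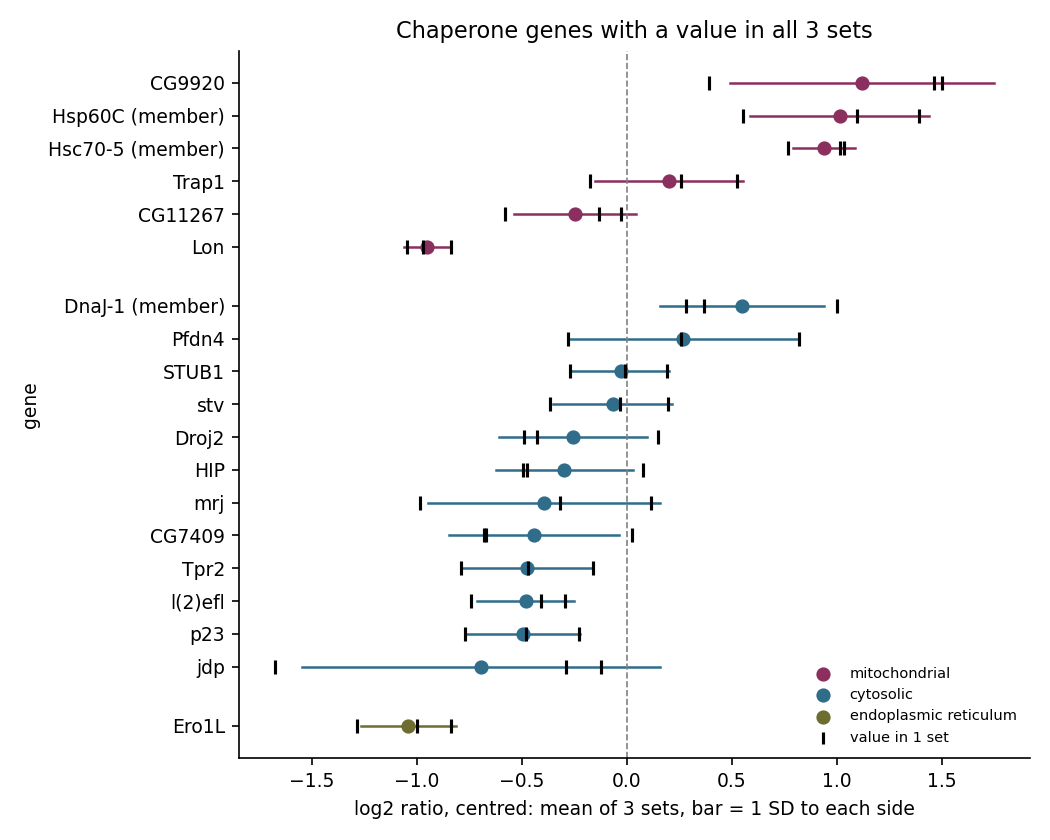
Centred log2 ratio (horizontal axis) of the 19 listed chaperone genes with a value in all 3 sets, by compartment. Dots are means of 3 sets, bars 1 SD to each side, and black ticks the 3 sets. Mitochondrial genes run from 1.12 for CG9920 to -0.95 for Lon, and cytosolic genes from 0.55 for DnaJ-1 to -0.69 for jdp.

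The classical heat-inducible genes could not be followed. Hsp26, Hsp68 and the heat shock factor gene Hsf were on the slide and had no value in any set. Hsp83, the Hsp70A and Hsp70B genes, Hsp22, Hsp23 and Hsp27 were not matched to a spot, nor was Hsp60A. The members are therefore described without the genes that are most used as readouts of a heat shock response.

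Position on the slide moved with the members' values. The slide was read as 48 blocks of 576 spots, and blocks held between 21.0% and 30.0% of the variance of spots in a set. The block of the Hsc70-5 spots had a centred median of 0.23 on replicate 2, 0.22 on replicate 4 and 0.51 in the shared set. The block of the Hsp60C spots had medians of 0.71, 0.21 and 0.15 in the same order, so on replicate 2 the gene's own value of 0.55 lay below its block. After block medians and a smooth trend within blocks were removed, Hsp60C was at -0.15 on replicate 2, 0.74 on replicate 4 and 1.18 in the shared set. Its mean was then 0.59 ± 0.67 (SD, n = 3 sets), with 1 set below 0. Hsc70-5 was at 0.32, 0.61 and 0.39 after this correction, a mean of 0.44 ± 0.15 with 3 of 3 sets above 0, and both means were smaller than before by a factor above 1.5.

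DnaJ-1 changed least among the members. It was at 0.35, 0.22 and 0.85 after the correction, a mean of 0.47 ± 0.33 (SD, n = 3 sets), and its 5 measured pairs lie in 5 blocks. The order of the pairs measured in all sets stayed the same, with means of 1.03 for pair 4, 0.89 for pair 1 and -0.24 for pair 3. CG9920 had a mean of 0.95 after the correction, Lon one of -0.31 and Ero1L one of -1.04, with limma adjusted p of 0.164, 0.41 and 0.108. The median of the mitochondrial list was then 0.16 and that of the cytosolic list -0.05, members included. Without the members the corrected medians were -0.21 and -0.07, so the mitochondrial list no longer lay above the cytosolic one. By limma 0 of 4002 units passed after the correction (0.0%), with 20.6% at an unadjusted p under 0.05. Units positive in all 3 corrected sets made up 22.8%, as did those negative in all 3.

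**Figure D5:**
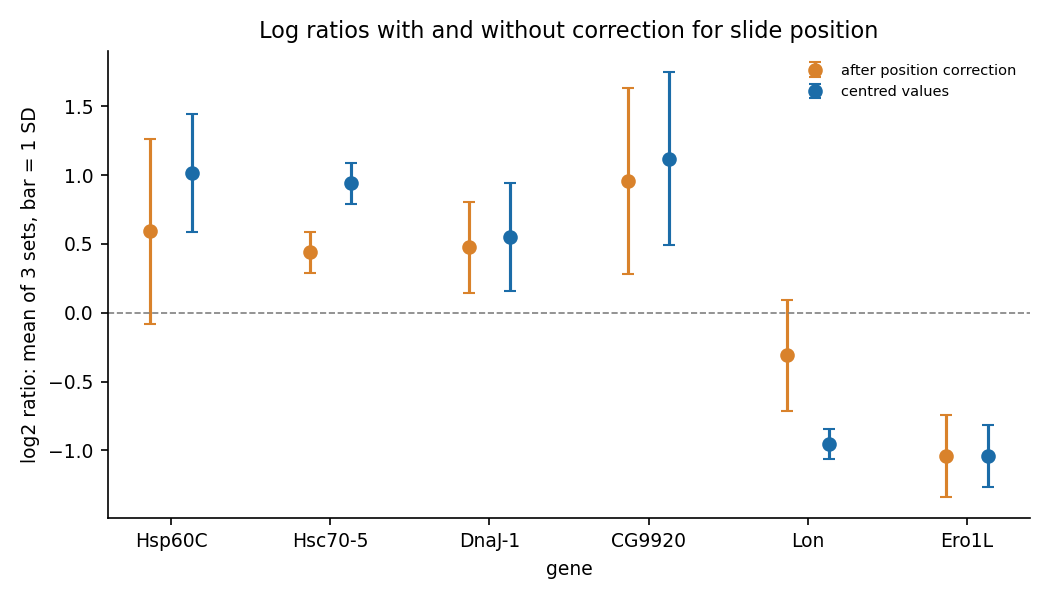
Mean centred log2 ratio of 3 sets (vertical axis, bars 1 SD) for the 3 members and 3 other chaperone genes, after correction for slide position (orange) and with centred values only (blue). Hsc70-5 lies at 0.44 with the correction and 0.94 without it, Lon at -0.31 and -0.95, and Ero1L and DnaJ-1 stay near their values.

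The named genes closest to each member were found by Euclidean distance over the 3 centred sets. They were Eaf, CG31206 and CG11475 for Hsp60C, at distances of 0.13 to 0.16. They were S-Lap7, CG10916 and Flacc for Hsc70-5 (0.10 to 0.11) and mAcon2, hyx and CG8774 for DnaJ-1 (0.10 to 0.14). Between members the distances were 0.43 for Hsp60C and Hsc70-5, 0.81 for Hsc70-5 and DnaJ-1 and 0.87 for Hsp60C and DnaJ-1. The nearest genes were picked as the closest of the named genes, so the larger distances between members are not a result. CG9920 was at 0.41 from Hsp60C, number 21 of 2026 named genes. After the position correction the means of the neighbours of Hsp60C were 0.46, 1.36 and 0.55, beside its own 0.59.

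The head label could not be checked from these values, since ratios carry no level. Of 16 photoreceptor, neuron and glia markers, 7 were on the slide and 4 had a value in at least 1 set. The photoreceptor genes Arr1, Arr2 and inaD were among them, with nSyb of neurons. The means of inaD and nSyb, measured in all 3 sets, were -0.19 and -0.35. Of 12 testis and accessory gland markers, looked at because Hsp60C is known from the male germ line, 7 were likewise on the slide and 4 had a value in at least 1 set, 3 of them in all sets. By mean, Mst77F was at 0.85 (limma adjusted p = 0.0449), Acp32CD at 0.44 and Mst85C at -0.57, a median of 0.44, beside the 1.02 of Hsp60C. After the position correction they were at 1.23, 0.47 and 0.10, beside the 0.59 of Hsp60C. The part of such RNA in the value of Hsp60C was not tested.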

How the data were processed

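The authors quantified the slides with GenePix Pro 6.0 and applied a ratio normalization in Acuity 4.0, per the labels' protocols. Spots under 100 units of raw intensity were ignored in normalization, and the spots kept had less than 3% saturated pixels, an R2 between channels from 0.6 upward and a signal to noise ratio from 3 upward. The deposited values are log2 ratios by assumption, with column medians of -0.121, -0.379, -0.179 and -0.621 for replicates 1 to 4. Which base, centring and direction they have is not given in the sources used here.

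Of 27648 spots, 15116 had 1 gene symbol, 102 had several and 12430 had none. Spots were averaged by symbol and unnamed spots by pair, and each set was then centred on its median. Replicates 1 and 3 entered once. Units with values in all 3 sets were fitted with limma 3.58.1 in R 4.3.3, two-sided, Benjamini-Hochberg adjusted, threshold 0.05. One fit tested the mean against 0. The other had a treated-dye term of opposite sign on replicates 2 and 4, and 0 for the shared set, whose labels disagree. With replicate 1 or 3 left out, the shared set took the dye code of the replicate kept. P-values measure the spread between sets of labelled biological replicates. The members, lists and settings were chosen with earlier results of these data known. The genes named are the members, list genes with extreme means or calls, and the 3 nearest genes per member. The position correction used block medians and a robust loess (span 0.4) in blocks with at least 30 values. A RefSeq table of the Release 6 assembly served to match names only, and no coordinates or sequences were used.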

Additional observations from a re-analysis of the deposited data

How the results depend on the processing

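The mean of the 3 sets kept its sign for Hsp60C, Hsc70-5 and DnaJ-1 under each setting that gave a value. The settings were each array as deposited, position correction, scale normalization, spot pairs as units, spots beyond 3 left out and sets left out. The members were chosen as positive in each set, so with scale normalization or sets left out that sign was fixed. The dye-turned difference of Hsp60C and Hsc70-5 kept its sign too, except that Hsc70-5 was at 0.00 as deposited. Without replicate 1, Hsp60C had no value. The mean of Hsp60C was 0.65 as deposited and 0.59 after the position correction, that of Hsc70-5 0.57 and 0.44, and that of DnaJ-1 0.18 as deposited and 0.33 with the shared set left out. Without replicate 1 or 3, the shared set took the dye code of the replicate kept, in place of 0. Dye-turned values without replicate 1 or 3 are therefore not replicate 2 against replicate 4 alone. The dye-turned difference of Hsp60C was -0.15 as deposited, -0.44 after the position correction, -0.40 with scale normalization and -0.06 without replicate 3. That of Hsc70-5 was -0.26 with scale normalization and -0.06 without replicate 3. The dye-turned difference of DnaJ-1 changed sign as deposited (0.082), after the position correction (0.061) and over spots with a value in all 3 sets (0.027, a setting chosen after seeing the data), was -0.092 with scale normalization and -0.18 with spot pairs as units, and ranged from -0.21 to 0.14 without replicate 1 or 3. The cause was not tested.

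The count of units past the threshold in the mean was 403, and it was 0 as deposited, 0 after the position correction, 0 with scale normalization, 668 without spots beyond 3, 1045 at an adjusted p of 0.10 and 0 with the shared set left out (1100 at an unadjusted p under 0.05; chosen after seeing the data). Leaving out 1 replicate gave 8 to 563, with 41 without replicate 1 and 8 without replicate 2. For the dye-turned difference, 11 units passed as deposited. Without replicate 1 or 3 the shared set had a dye code, which left 1 array of the opposite dye, so no count is given. The dye-turned difference was not run without replicate 2 or 4, where no residual degrees of freedom remain.

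The mitochondrial list median, members included, was 0.20 as deposited and 0.16 after the position correction. With 1 replicate left out it ran from -0.23 to 0.57. The lowest was without replicate 1, where 3 genes were left and Hsp60C and CG9920 had no value. Without replicate 2 the median was 0.17. The cytosolic median was -0.71 as deposited and -0.046 after the position correction. Ero1L alone was at -1.41 as deposited, and its list ran from -1.04 to -0.44 with 1 replicate left out, the last over 2 genes without replicate 4. Each value already sets treated against control RNA of the same biological replicate within an array, so no further pairing was made.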
